A study of Mus musculus with 6 samples.

Results

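Endothelial cells line the blood vessels of the cochlea, and 10 genes that mark them were followed in *Cmah*-null and WT mice: Pecam1, Cdh5, Kdr, Flt1, Tek, Tie1, Vwf, Eng, Cldn5 and Emcn. The genes were chosen by name as markers of this cell type, and every probe that carried one of the symbols was taken. This gave 12 of the 25697 probes and 10 of the 18138 gene symbols on the array. Total RNA came from cochlear tissue of mice that were 12 months old (strain C57BL/6 in the labels and C57BL/6J in the methods), 3 labelled WT and 3 labelled *Cmah*-null, and each sample was hybridized to its own Illumina MouseRef-8 v2 array. The *Cmah*-null mice carried the Cmah<tm1Ykoz> knockout obtained from RIKEN, in which CMP-Neu5Ac hydroxylase, the enzyme that makes the sialic acid Neu5Gc, is disrupted. No treatment was listed for either group. The methods give 3 mice per group and the labels name no individual animal, so the p-values measure the spread between these samples only.

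Endothelial cells hold together through junction proteins such as VE-cadherin and the claudins, and they respond to growth factors of the VEGF and angiopoietin families through receptor tyrosine kinases. In the cochlea the densest capillary bed is that of the stria vascularis, where tight junctions between endothelial cells form the blood-labyrinth barrier and pericytes wrap the capillaries. Von Willebrand factor is stored in endothelial cells and, outside the vessel wall, in platelets and megakaryocytes. In whole tissue, fewer cells of a type and less RNA per cell cannot be told apart.

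The arrays were not equally close to each other. *Cmah*-null replicates 1 and 2 differed with an SD of 0.13 on the log2 scale over all probes, where the other pairs of arrays differed with an SD of 0.31 to 0.64. Of the probes detected on all 6 arrays, 24.3% differed between these replicates by more than 1.96 standard errors of their bead signals, against 56.6% to 83.2% for the other pairs. Arrays of the same RNA can also differ by more than their bead error, so whether these were separate animals was not tested. They were kept as the separate samples of the labels, and their mean as 1 sample was tried as an alternative. *Cmah*-null replicate 3 stood apart from all other arrays, and 36.6% of the 12410 probes detected on all arrays had their highest value there, with 31.7% at their lowest. The arrays of WT replicate 1 and *Cmah*-null replicates 1 and 2 had a median of 32 to 34 beads per probe and the other 3 arrays 38 or 39. Each of these sets held both genotypes. WT replicate 1 was the only WT array with fewer beads, and *Cmah*-null replicate 3 the only *Cmah*-null array with more. A difference within a bead set therefore rests on a single array on that side. The signal of the Cmah probe was above background on WT replicate 3 and *Cmah*-null replicates 1 and 2, at 7.87, 7.95 and 7.98 on the log2 scale, and was 7.27, 7.28 and 7.27 on WT replicates 1 and 2 and *Cmah*-null replicate 3. This probe therefore did not separate the genotypes, where it lies relative to the deleted part of the gene was not given in the sources used here, and every direction below rests on the labels.

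The sequences that carry the measurements are shown first. Each probe was 50 bases long, and the first 30 bases are given for the genes on which the results turn. The pair of Flt1 probes is shown because only one of them gave a signal, and they begin at base 6214 and base 3232 of the transcript as the array's annotation counts it.
Flt1 probe ILMN_1227926: gctatcgggattctctggttctgcttaaag
Flt1 probe ILMN_2732721: ccctcaccatggaagacctgatttcctaca
Cldn5 probe: ggccctgtaggtaccagagccttagagggg
Tek probe: ctcacctgcagaagccagtttgtttggcca
Vwf probe: ggtcatcaacgccatgcagtgcaggtgttc
Emcn probe: tgccgtagttgagtttagactttccaggtt

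Promoter sequence from RefSeq, covering 300 bases around the gene's start on build GRCm38.p6, was matched for 7 of the 10 genes (Eng, Emcn, Tek, Tie1, Kdr, Flt1 and Cldn5). The promoters of Cldn5 and Tek are printed because these were the members whose groups did not overlap, and that of Flt1 because its signal spread most widely among the *Cmah*-null arrays beside that of Vwf. Capitals mark the letters GGAAG, which hold the GGAA core bound by ETS factors, and AGATAA, which hold the GATA core bound by GATA factors, on either strand. A GGAA or GATA outside these longer strings is neither marked nor counted.
Cldn5, chr16:18776597-18776896, plus strand: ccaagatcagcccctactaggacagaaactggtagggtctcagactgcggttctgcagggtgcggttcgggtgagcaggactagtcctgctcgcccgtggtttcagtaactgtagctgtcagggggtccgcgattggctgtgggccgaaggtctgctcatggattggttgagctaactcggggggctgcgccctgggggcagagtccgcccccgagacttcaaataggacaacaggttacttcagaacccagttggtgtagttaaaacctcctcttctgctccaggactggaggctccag
Tek, chr4:94739039-94739338, plus strand: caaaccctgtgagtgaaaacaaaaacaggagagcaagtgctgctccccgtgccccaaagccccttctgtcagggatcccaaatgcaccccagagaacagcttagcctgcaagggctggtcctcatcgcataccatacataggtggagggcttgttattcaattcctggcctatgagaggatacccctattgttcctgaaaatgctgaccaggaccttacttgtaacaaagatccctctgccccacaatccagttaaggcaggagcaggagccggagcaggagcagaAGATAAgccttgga
Flt1, chr5:147725962-147726261, minus strand: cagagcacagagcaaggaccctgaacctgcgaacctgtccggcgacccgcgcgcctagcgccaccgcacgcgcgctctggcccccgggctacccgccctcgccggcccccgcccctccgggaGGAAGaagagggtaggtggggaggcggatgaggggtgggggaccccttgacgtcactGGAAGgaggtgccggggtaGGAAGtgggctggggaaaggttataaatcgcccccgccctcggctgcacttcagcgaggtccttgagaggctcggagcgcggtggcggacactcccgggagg
GGAAG or its reverse complement CTTCC was present in 5 of the 7 member promoters (Emcn 2 times, Eng 2, Flt1 3, Kdr 1 and Tie1 7) and in 71.4% of the 32851 promoters of this length. AGATAA or TTATCT was present in 1 of the 7, that of Tek, and in 11.2% of all promoters. The end of GGAAG can overlap the start of AGATAA, but no member promoter held both, and these matches are a description of the sequence.

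All 10 genes had a probe detected on all 6 arrays, so the markers of endothelium were present in tissue of both genotypes. Cldn5 and Tek were lower on each *Cmah*-null array than on each WT array, at 60.4% and 73.0% of the WT level. Vwf was the member with the largest mean increase, 187% of the WT level, but its groups overlapped and most of the difference came from *Cmah*-null replicate 3. Of the 10 genes, 6 had a lower and 4 a higher mean in the *Cmah*-null samples, and the median log2 fold change (*Cmah*-null minus WT) was -0.10, against 0.03 over all probes detected on the 6 arrays. When the arrays were scaled to a common median without the quantile step, the median over those detected probes became 0.30 and that of the members 0.02, so the median of the members was below that of the detected probes on both scales, while Vwf and Eng were above it on both. Under median scaling the log2 fold changes of Cldn5, Tek, Emcn and Vwf were -0.26, -0.10, -0.18 and 1.41, which relative to the detected probes is -0.56, -0.40, -0.47 and 1.11.

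No member passed the test. In limma with Benjamini-Hochberg adjustment over all probes, the adjusted p of the 12 member probes ranged from 0.505 to 0.981, and 0% of all 25697 probes were called at an adjusted p under 0.05. At an unadjusted p under 0.05, 2 of the 12 member probes were lower and 0 higher, where 3.78% of all probes were lower and 4.77% higher. This count of 2 became 0 without *Cmah*-null replicate 2, 1 without *Cmah*-null replicate 1, WT replicate 2 or WT replicate 3, 3 without WT replicate 1 and 4 without *Cmah*-null replicate 3. Among the probes detected on all 6 arrays, which included 11 of the member probes, the shares were 5.46% lower and 7.79% higher. The 2 detected member probes with each *Cmah*-null array below each WT array compare with 7.86% of such probes, and 0 members lay above, where 11.5% of such probes did. With 3 samples a group, an exact permutation test of a single gene cannot give a two-sided p below 0.1.

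**Figure D1:**
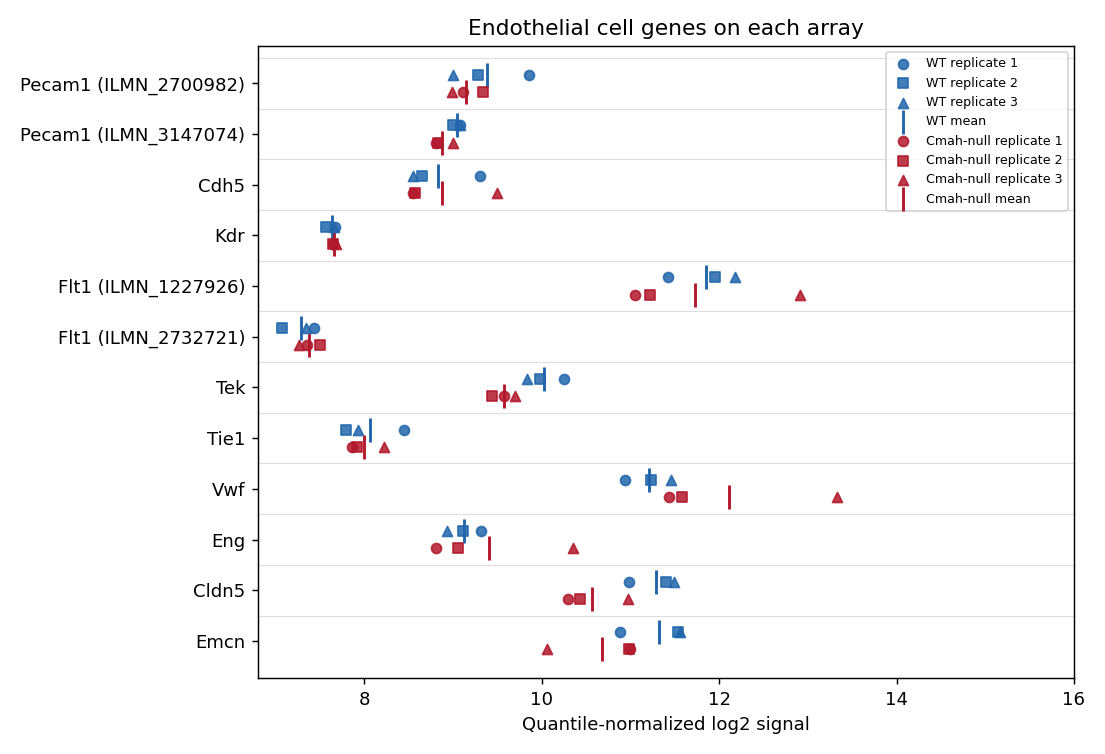
Quantile-normalized log2 signal (horizontal axis) of the 12 probes of the 10 endothelial cell genes on each array, with WT in blue, *Cmah*-null in red, a marker shape for each replicate number and a vertical bar at each group mean. Cldn5 and Tek have all red points left of all blue points, and *Cmah*-null replicate 3 lies far to the right for Vwf, Flt1, Eng and Cdh5 and to the left for Emcn.

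The junction and adhesion genes had different patterns over the arrays. Claudin 5, encoded by Cldn5, is the main claudin of endothelial tight junctions. Its log2 signal was 10.99, 11.41 and 11.49 on WT replicates 1 to 3 and 10.29, 10.43 and 10.98 on *Cmah*-null replicates 1 to 3. The groups only just missed each other, since WT replicate 1 and *Cmah*-null replicate 3 nearly coincided, while *Cmah*-null replicates 1 and 2 were clearly lowest. The means were 11.29 ± 0.27 and 10.57 ± 0.36 (SD, n = 3), a log2 fold change of -0.73 (95% interval -1.28 to -0.17), with an unadjusted p of 0.0188 and an adjusted p of 0.524 in limma. Cldn5 stayed lower within the arrays with fewer beads (-0.63) and within those with more beads (-0.47), and without *Cmah*-null replicate 3 (-0.93).

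VE-cadherin, encoded by Cdh5, is the adhesion protein that defines endothelial adherens junctions. Cdh5 had log2 signals of 9.30, 8.65 and 8.55 in WT and of 8.55, 8.57 and 9.50 in *Cmah*-null replicates. One array in each group was high, WT replicate 1 and *Cmah*-null replicate 3, and the remaining 4 lay close together, so the groups overlapped fully. The difference in the means was 0.04 (95% interval -0.77 to 0.85) and was -0.74 within the arrays with fewer beads and 0.90 within those with more.

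PECAM1 is an adhesion receptor of endothelium that leukocytes and platelets carry as well, and its gene had a pair of probes. Probe ILMN_3147074 gave 9.07, 9.00 and 9.07 in WT and 8.81, 8.83 and 9.00 in *Cmah*-null replicates. *Cmah*-null replicates 1 and 2 lay below all WT arrays and replicate 3 met the lowest WT array, with a difference of -0.17 (95% interval -0.38 to 0.03). Probe ILMN_2700982 gave 9.86, 9.28 and 9.00 in WT and 9.11, 9.34 and 8.99 in *Cmah*-null replicates, a difference of -0.24 (95% interval -0.81 to 0.34) that came from WT replicate 1 and became 0.0030 without it. Both Pecam1 probes were lower on the quantile scale and turned to 0.04 and 0.07 under median scaling, where the typical detected probe was at 0.30.

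The receptors for VEGF are the tyrosine kinases encoded by Kdr, which carries most of the growth signal, and Flt1, which binds the ligand tightly and also exists in a soluble form. The Kdr probe was dim, between 7.57 and 7.68 on all 6 arrays with a detection p of up to 0.0338, and the groups differed by 0.02 (95% interval -0.14 to 0.19). At a signal this near the background, a change in Kdr could not be measured well. Flt1 probe ILMN_1227926 gave 11.42, 11.96 and 12.18 in WT and 11.05, 11.22 and 12.91 in *Cmah*-null replicates. *Cmah*-null replicates 1 and 2 were the lowest of the 6 arrays and replicate 3 was the highest, and the means of 11.85 ± 0.39 and 11.73 ± 1.03 (SD, n = 3) did not separate. Without *Cmah*-null replicate 3 the difference was -0.72, with an unadjusted p of 0.0246 and an adjusted p of 0.308 in limma, and the sign turned under median scaling and with the bead sets as a block (0.41 and 0.27). The other Flt1 probe, ILMN_2732721, was not well above background on any array (7.07 to 7.50), so the Flt1 values rest on a single probe.

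The angiopoietin receptors are Tek, also known as Tie2, which binds the ligands, and Tie1, its partner, which modulates it. Tek gave 10.26, 9.99 and 9.83 in WT and 9.58, 9.44 and 9.69 in *Cmah*-null replicates. All *Cmah*-null arrays lay below all WT arrays, and here *Cmah*-null replicate 3 did not stand apart from the other two. The means were 10.02 ± 0.21 and 9.57 ± 0.13 (SD, n = 3), a log2 fold change of -0.45 (95% interval -0.79 to -0.12), with an unadjusted p of 0.016 and an adjusted p of 0.505 in limma. The difference was -0.75 within the arrays with fewer beads and -0.22 within those with more, and -0.52 without *Cmah*-null replicate 3. Tie1 showed no such separation. It gave 8.45, 7.80 and 7.93 in WT and 7.86, 7.92 and 8.22 in *Cmah*-null replicates, with overlapping groups and a difference of -0.06 (95% interval -0.55 to 0.42) that turned to 0.13 without WT replicate 1.

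Endoglin, encoded by Eng, is a co-receptor for ligands of the TGF-beta family. It gave 9.32, 9.11 and 8.94 in WT and 8.80, 9.06 and 10.36 in *Cmah*-null replicates. *Cmah*-null replicate 3 was far above the other 5 arrays, and without it the difference turned from 0.28 (95% interval -0.74 to 1.30) to -0.19.

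Vwf gave 10.94, 11.23 and 11.46 in WT and 11.44, 11.58 and 13.32 in *Cmah*-null replicates. *Cmah*-null replicates 1 and 2 were close to the highest WT array and replicate 3 was far above all others. The means were 11.21 ± 0.26 and 12.11 ± 1.05 (SD, n = 3), a difference of 0.91 (95% interval -0.38 to 2.19) with an adjusted p of 0.68 in limma, and it was 0.30 without *Cmah*-null replicate 3. Within the arrays with fewer beads the difference was 0.57 and within those with more beads 1.98, and the fit with the bead sets as a block gave 1.28 with an unadjusted p of 0.0119 and an adjusted p of 0.167.

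Platelets and megakaryocytes also hold Vwf, so their markers are given beside it. Of 8 platelet and megakaryocyte genes measured, 7 had a higher mean in the *Cmah*-null samples and 5 of them an unadjusted p under 0.05 (Itga2b, Itgb3, Gp1bb, Gp5 and Treml1), where 4.77% of all probes and 7.79% of the detected probes were higher at that threshold. None of the 8 passed the adjusted test, and their median log2 fold change was 0.65. The summed linear signal of the list was 1831 to 3405 on the WT arrays and 4691, 4654 and 4018 on *Cmah*-null replicates 1 to 3. In that sum Ppbp gave 10.42, 10.33 and 8.01 on the log2 scale on these arrays. The median over the list, each gene taken relative to its mean over the 6 arrays, was 0.19, 0.23 and 0.33 on them. By this measure the list was highest on replicate 3, where Vwf was highest too. Treml1, a receptor of platelet granules and the member of this list with the largest increase, gave 9.33, 8.18 and 9.26 in WT and 9.96, 9.89 and 10.08 in *Cmah*-null replicates. Treml1 was about equally high on the 3 *Cmah*-null arrays, where Vwf stood out on replicate 3. Of the 8 genes, 3 had their highest value of all arrays on that replicate and 1 its lowest. Of the 5 genes named above, Itgb3 was not detected on any array, so its value lay at background, and the others were detected on all 6. The part of platelet RNA in the Vwf result was not tested.

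Endomucin, encoded by Emcn, is a sialomucin of capillary and venous endothelium. Emcn gave 10.89, 11.54 and 11.56 in WT and 10.99, 10.99 and 10.06 in *Cmah*-null replicates. WT replicate 1 fell among the *Cmah*-null arrays, and *Cmah*-null replicate 3, which was the highest array for Vwf, Flt1, Eng and Cdh5, was the lowest here. The means were 11.33 ± 0.38 and 10.68 ± 0.54 (SD, n = 3), a difference of -0.65 (95% interval -1.44 to 0.15) with an adjusted p of 0.642 in limma. The difference was 0.11 within the arrays with fewer beads and -1.49 within those with more, and -0.33 without *Cmah*-null replicate 3.

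**Figure D2:**
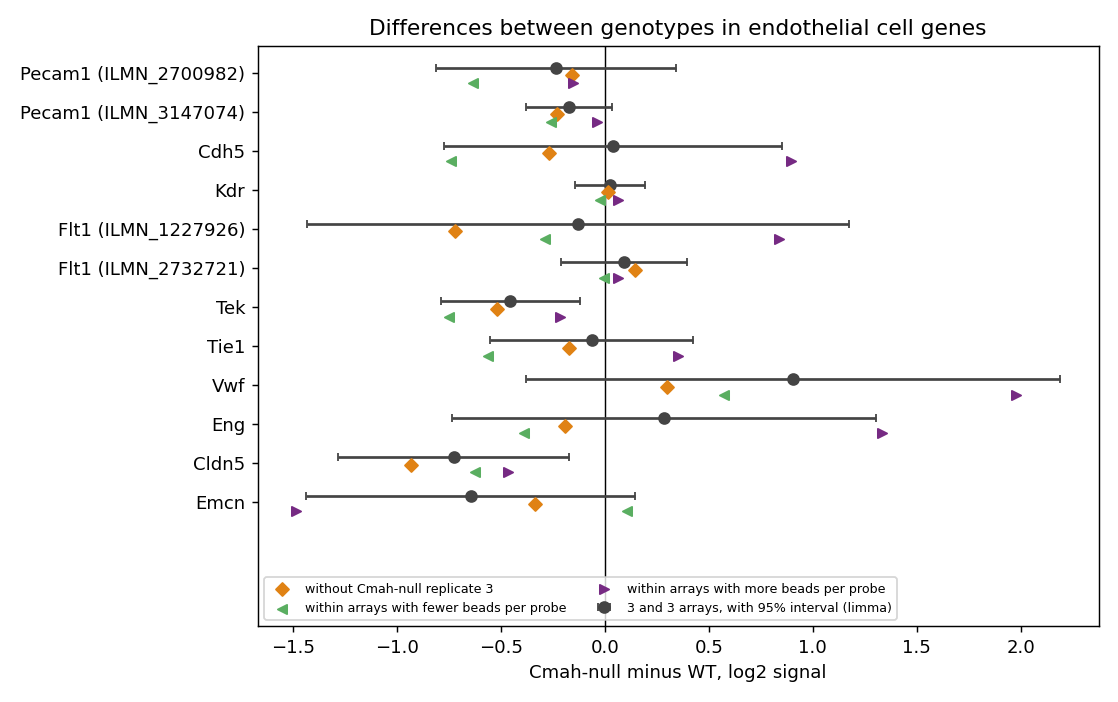
Difference in mean log2 signal, *Cmah*-null minus WT (horizontal axis), for each of the 12 probes, as the limma estimate with its 95% interval, without *Cmah*-null replicate 3, and within the arrays with fewer or more beads per probe. The intervals of Cldn5 and Tek exclude 0 before adjustment over all probes, and the values within the bead sets lie on opposite sides of 0 for Cdh5, Kdr, both Flt1 probes, Tie1, Eng and Emcn. A single array stands for WT among those with fewer beads and for *Cmah*-null among those with more.

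Leaving out *Cmah*-null replicate 3 changed the picture of the group. Without it 8 of the 10 genes had a lower mean in the *Cmah*-null samples, 3 of them (Flt1, Tek and Cldn5) with an unadjusted p under 0.05 and 0 higher, where 5.55% of all probes were lower and 7.46% higher in the same fit. The members' median was then -0.23. The smallest adjusted p among the members was then 0.159, for Cldn5, so no member passed the test there either. In that fit the *Cmah*-null group is replicates 1 and 2 alone, the closest pair of arrays, with an SD of 0.13. Its p-values and counts, here and in the other paragraphs, treat them as separate samples, which was not tested. The sum of the quantile-normalized signals of the 10 genes on the linear scale was 12600 to 16067 on the WT arrays, 10761 and 11555 on *Cmah*-null replicates 1 and 2, and 24884 on *Cmah*-null replicate 3. Most of the sum on replicate 3 was Vwf and Flt1, at 13.32 and 12.91 on the log2 scale. Cldn5, Tek and Emcn were below all WT arrays there. The median over the 10 genes, each taken relative to its mean over the 6 arrays, was 0.12 on that replicate.

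Ligands and partners of these receptors were taken from a list of 18 genes, all on the array, of which 10 were detected on all 6 arrays. The median log2 fold change was 0.03, and 3 genes were lower at an unadjusted p under 0.05 and 0 higher, against 3.78% and 4.77% of all probes. Without *Cmah*-null replicate 3, 6 were lower and 0 higher, against 5.55% and 7.46%. Among the 6 was Gdf2, which was not detected on any array. Angpt1, the activating ligand of Tek, gave 8.12, 7.82 and 7.70 in WT and 7.48, 7.55 and 7.33 in *Cmah*-null replicates, a log2 fold change of -0.43 with an adjusted p of 0.525 in limma. Angpt1 was below the WT arrays on all *Cmah*-null arrays, as Tek was, but it was detected on only 4 of the 6 arrays. Nrp2, a co-receptor for VEGF family ligands, and Bmpr2, a receptor for BMP ligands, were the others of the 3, at -0.29 and -0.34. Nrp2 was near background, detected on the 3 WT arrays and on no *Cmah*-null array. Tgfb1, a ligand of the TGF-beta family, had the largest increase of the list, 0.72, and 0.20 without *Cmah*-null replicate 3. The ligand Vegfa gave -0.41 and -0.73 without that replicate, with overlapping groups in the full set. The other VEGF ligands of the list had higher means, Vegfb at 0.60, Vegfc 0.25, Figf 0.64 and Pgf 0.33. Without *Cmah*-null replicate 3 they were at 0.06, -0.36, 0.29 and 0.09. Figf was the 1 gene of the list with each *Cmah*-null array above each WT array, where 11.5% of the detected probes were. Pgf was detected on only 4 of the 6 arrays.

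Of 32 other endothelial genes, 30 were on the array and 23 were detected on all 6 arrays. At an unadjusted p under 0.05, 3 were lower and 1 higher, against 3.78% and 4.77% of all probes, with a median log2 fold change of 0.06. Without *Cmah*-null replicate 3, 7 were lower and 0 higher, against 5.55% and 7.46%, with a median of -0.06. Egfl7, a protein that endothelial cells secrete, gave 12.25, 12.78 and 12.54 in WT and 11.47, 11.64 and 12.09 in *Cmah*-null replicates, a log2 fold change of -0.79 with an adjusted p of 0.453 in limma. This pattern over the arrays was much like that of Cldn5, with *Cmah*-null replicates 1 and 2 lowest and replicate 3 close to WT replicate 1. Eltd1, an adhesion receptor of endothelium, was at -0.63 and Cd34 at -0.24, and Ece1, the enzyme that processes endothelin, at 0.39. Cd34 lay at 0.01 under median scaling, which relative to the detected probes is -0.29. Plvap, a protein of fenestrated capillaries, had the largest increase of this list, 0.67, and 0.17 without *Cmah*-null replicate 3, the array on which Vwf was high too.

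Smaller sets described states and subtypes of endothelium. All 4 activation genes had a higher mean in the *Cmah*-null samples (median 0.50), where 46.9% of the probes detected on all 6 arrays had a lower mean. Of the 4, Sele was not detected on any array, and Vcam1 was at 0.23 with overlapping groups. Icam1, an adhesion molecule for leukocytes, gave 8.94, 9.42 and 9.82 in WT and 10.04, 9.96 and 10.48 in *Cmah*-null replicates, 0.77 with an adjusted p of 0.545 in limma. Selp, which is stored with von Willebrand factor in endothelial cells and in platelets, was 0.86 higher, and 0.37 without *Cmah*-null replicate 3. Of 15 arterial and venous genes (median 0.09), 1 was higher at an unadjusted p under 0.05 and 0 lower, against 4.77% and 3.78% of all probes. Among the probes detected on all 6 arrays, 7.79% were higher at that threshold. The gene was Hey1, a target of Notch signalling. It gave 11.48, 11.42 and 11.54 in WT and 11.92, 11.93 and 11.95 in *Cmah*-null replicates. Hey1 differed by 0.45 with little spread in either group, at an adjusted p of 0.365. The list's extremes were the venous regulator Nr2f2 at 0.56 and the apelin receptor Aplnr at -0.61 (0.27 and -0.94 without *Cmah*-null replicate 3), neither with an unadjusted p under 0.05. Of 7 blood barrier genes (median -0.07), a list of transporters and junction proteins, the glucose transporter Slc2a1 was 0.79 higher (0.46 without *Cmah*-null replicate 3) and the organic anion transporter Slco1a4 differed by -0.42, with adjusted p of 0.574 and 0.449 in limma, and the thyroid hormone transporter Slco1c1 by -0.43 with overlapping groups (0.21 without that replicate). Slco1a4 was detected on 3 WT arrays and 1 *Cmah*-null array, so its *Cmah*-null values lay near background. Of the 7 genes, 3 were detected on all 6 arrays and 2, Abcb1a and Abcg2, on none, which limits the median. Of 3 lymphatic genes (median 0.66), Prox1, the regulator of lymphatic identity that cochlear supporting cells also express, was 0.73 higher with an adjusted p of 0.453. Lyve1 was at 0.66 with overlapping groups, and at 0.32 without *Cmah*-null replicate 3. Flt4 was at 0.02 and was detected on only 4 of the 6 arrays.

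Pericytes and smooth muscle cells wrap the vessels. Of 13 pericyte and smooth muscle genes, 11 were detected on all 6 arrays, with a median log2 fold change of -0.14. Under median scaling it was 0.13, where the median of the detected probes was 0.30. Rgs5, a marker of pericytes, gave 9.32, 9.05 and 8.56 in WT and 7.60, 7.76 and 7.97 in *Cmah*-null replicates. All *Cmah*-null arrays were below all WT arrays, by -1.20 in the mean, with an unadjusted p of 0.00149 and an adjusted p of 0.397 in limma. The *Cmah*-null signals of Rgs5 were dim, with a detection p of up to 0.0276 over the 6 arrays. Of the 13 genes, 9 had a lower mean, Kcnj8 (-0.29) and Abcc9 (-0.14) among them. The other 4 had a higher mean, Pdgfrb (0.09) and Notch3 (0.31) among them. Vtn was 0.55 higher, or 0.31 without *Cmah*-null replicate 3. The summed linear signal of the list was 35775 to 45064 in WT and 39814 to 47832 in *Cmah*-null. Most of that sum was Acta2 of smooth muscle, at 14.47, 15.02 and 15.09 in WT and 14.92, 14.90 and 14.91 in *Cmah*-null replicates. The sum therefore says little of the pericyte genes.

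Markers of other tissues that a dissection can hold are given next, and none of them passed the adjusted test. Of 9 genes of fat and brown fat, 8 were lower, 4 of them with an unadjusted p under 0.05 (Ucp1, Cidea, Cox8b and Lep) where 3.78% of all probes were, and the median over the list was -1.20, or -0.56 without *Cmah*-null replicate 3. Ucp1, the uncoupling protein of brown fat, gave 13.63, 12.48 and 11.79 in WT and 10.82, 10.84 and 9.90 in *Cmah*-null replicates, so it was below the WT arrays on all *Cmah*-null arrays, as Cldn5 and Tek were. The summed linear signal of the fat list was 67689 to 92170 in WT, and 24363 to 70703 in *Cmah*-null, lowest on replicate 3. All 8 skeletal muscle genes had a lower mean (median -0.40) and a summed linear signal of 195674 to 319693 in WT and 207387 to 217638 in *Cmah*-null, with 0 at an unadjusted p under 0.05. Both tissues carry capillaries, and their part in the Cldn5, Tek and Emcn results was not tested. The medians were 0.15 for 10 macrophage and leukocyte genes, -0.11 for 6 erythroid genes and 0.05 for 9 cochlear genes, of which 5, Gjb2 and Otos among them, were detected on all 6 arrays and 2, Tectb and Slc26a5, on none. Among the extremes of these lists were Mylpf of fast muscle (-1.65), Cfd of fat (0.26), the macrophage genes C1qb (0.57) and Emr1 (-0.41), the red cell gene Slc4a1 (0.06), and Gjb2 (0.57) and Otos (-0.65) of the cochlea, all with overlapping groups. Without *Cmah*-null replicate 3 these were -0.81 for Mylpf, 0.75 for Cfd, 1.15 for C1qb, -0.46 for Emr1, 0.39 for Slc4a1, 0.29 for Gjb2 and -0.03 for Otos.

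**Figure D3:**
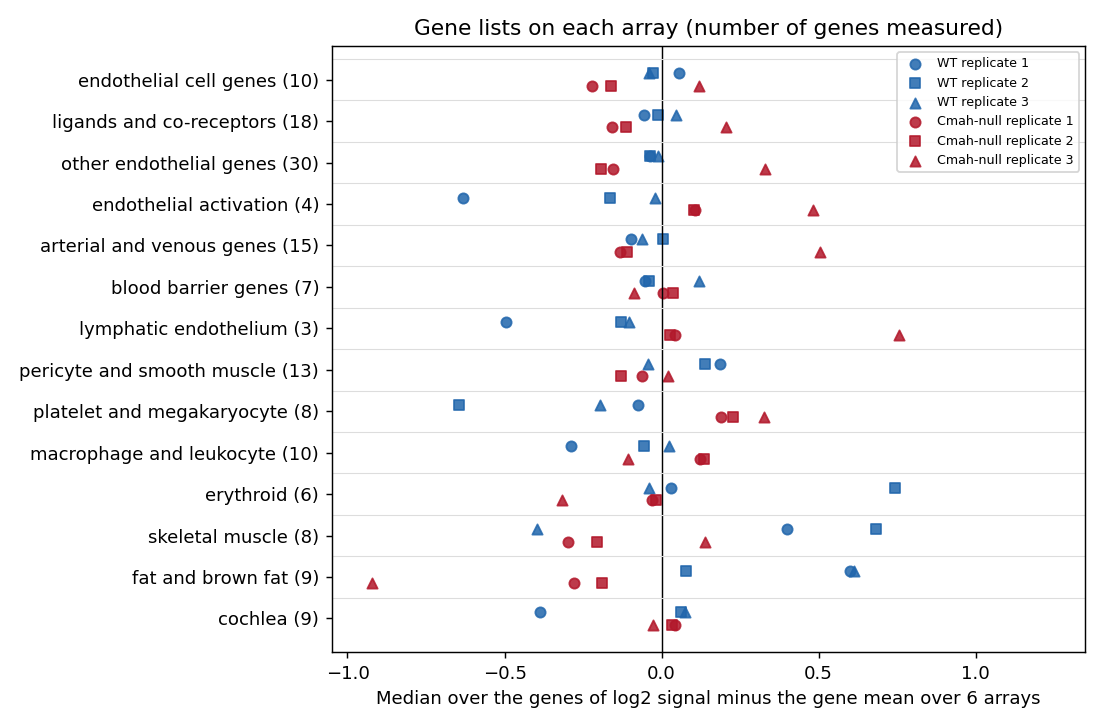
Median over the genes of each list of the log2 signal minus the gene's mean over the 6 arrays (horizontal axis), for each array, with the number of genes measured in parentheses, WT in blue and *Cmah*-null in red. The endothelial cell genes lie between -0.22 and 0.12, with *Cmah*-null replicates 1 and 2 lowest and replicate 3 highest, and the endothelial activation, lymphatic, platelet and fat lists have all *Cmah*-null arrays to one side of all WT arrays.

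The mean of the 11 detected member probes was 9.83, 9.78 and 9.79 on WT replicates 1 to 3 and 9.47, 9.55 and 10.06 on *Cmah*-null replicates 1 to 3. Among the 8703 other probes detected on all arrays with at least this range, the 5 with the smallest SD of the difference from this profile were those of Nkiras2, Mrps18a, Hoxa4, Crim2 and Cspg4, with SDs of 0.04 to 0.06 over the 6 arrays. Cspg4, which encodes the proteoglycan NG2 of pericytes, had means of 8.39 in WT and 8.25 in *Cmah*-null samples, with its highest value, 8.64, on *Cmah*-null replicate 3. The shared shape was that of low *Cmah*-null replicates 1 and 2 and a high *Cmah*-null replicate 3, and with 6 arrays many probes can share it.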

How the data were processed

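The authors labelled total RNA as biotinylated cRNA and deposited, for each probe and sample, the average bead intensity without background subtraction, its bead standard error, the count of beads and a detection p-value against negative controls. The log2 values used here are a further deposited table, quantile normalized by the authors. These were checked to equal quantile-normalized log2 intensities to within 5e-07. Without background subtraction, fold changes of dim probes are understated. That table named the *Cmah*-null columns "old", and another 12 columns of it repeating per-sample values were not used. Its columns of the authors' own comparison (fold change and test statistics) were not used.

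Genotypes were compared by the moderated test of limma 3.58.1 (R 4.3.3), two-sided and without covariates, and p-values were adjusted by Benjamini-Hochberg across the 25697 probes. The code was first tested on simulated data. The threshold was 0.05. A probe was detected at a detection p under 0.05. For the lists the brightest probe stood for a gene, and no list was given a test of its own. Named were all member probes, the gene with the largest increase and the largest decrease in each other list among those detected throughout at least 1 genotype, and the 5 probes most like the members' mean profile. 1 gene that this rule names is not reported here. Any further gene was singled out with its values already seen. The members and lists were chosen with earlier results of these data known. Promoter sequences and gene starts are from RefSeq, build GRCm38.p6. The build of the probes' own coordinates was not given in the sources used here, so these are not printed. The number of arrays limits the precision. Plots were made in Python 3.11.15 (matplotlib 3.10.9).

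Alternatives were neqc normalization (offset 16), scaling to a common median, only probes with detection on 3 or more arrays, a block for the replicate number or for the bead set, a variance prior with trend and robust, *Cmah*-null replicates 1 and 2 averaged, and each array left out in turn.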

Additional observations from a re-analysis of the deposited data

How the results depend on the processing

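No member probe passed an adjusted p under 0.05 under any of the 13 alternatives, and Cldn5, Tek, Emcn (lower) and Vwf (higher) kept their direction in all of them. With each array left out in turn, the count of member probes lower at an unadjusted p under 0.05 ranged from 0 (without *Cmah*-null replicate 2) to 4 (without *Cmah*-null replicate 3), and over all probes from 600 to 1425 lower and from 633 to 1917 higher. The members' median ranged from -0.23 to 0.023, that of the blood barrier list from -0.15 to 0.061, lymphatic 0.32 to 0.86, platelet 0.39 to 0.75, skeletal muscle -0.87 to -0.18, and fat -1.54 to -0.56. Under median scaling 0 member probes were lower and 1 higher at an unadjusted p under 0.05, with 206 lower and 3288 higher over all probes, and the medians were 0.90 for activation, 0.13 for pericytes, 0.46 for macrophages and -0.74 for fat. The filter on detection left 624 probes lower and 715 higher and a barrier median of -0.25, with fewer probes tested. With the bead sets as a block 3 probes in all passed an adjusted p under 0.05, with 2125 lower and 2415 higher at an unadjusted p under 0.05, 1 member (Vwf) was higher, and the fat median was -1.65. With *Cmah*-null replicates 1 and 2 averaged, 1 member probe and 642 of all probes were lower. The prior with trend and robust left 1 member probe lower, and neqc moved the platelet median to 0.98. No pairing by replicate number showed. The deviations of same-numbered arrays from their group means correlated at 0.03, -0.18 and 0.03, and those of differently numbered arrays at -0.11 to 0.19. With *Cmah*-null replicate 3 far from replicates 1 and 2, this check cannot exclude a pairing. A replicate block gave 2 member probes lower, with 918 probes lower and 1208 higher over all probes.

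The sign turned as follows, and the cause was not tested. Under median scaling Flt1 probe ILMN_1227926 was at 0.41, the Pecam1 probes at 0.043 and 0.071, Nkiras2 at 0.14 and Mrps18a at 0.30. The median of the probes detected on all 6 arrays was itself 0.30 on that scale. Relative to it, Flt1 was at 0.11, the Pecam1 probes at -0.26 and -0.23, Nkiras2 at -0.16 and Mrps18a at 0.00022. With the bead block Flt1 was at 0.27, Slc4a1 at -0.069 and Nkiras2 at 0.031. With *Cmah*-null replicates 1 and 2 averaged Flt1 was at 0.17, Slc4a1 at -0.10, Nkiras2 at 0.047 and Hoxa4 at 0.0099. With each array left out in turn, Flt1 probe ILMN_1227926 ranged from -0.72 to 0.21, the undetected Flt1 probe from -0.011 to 0.17, Pecam1 probe ILMN_2700982 from -0.43 to 0.0030, Cdh5 from -0.27 to 0.28, Kdr from -0.0071 to 0.043, Tie1 from -0.19 to 0.13, Eng from -0.19 to 0.58, Slco1c1 from -0.77 to 0.21, Emr1 from -0.98 to 0.060, Slc4a1 from -0.49 to 0.68, Nkiras2 from -0.28 to 0.060 and Hoxa4 from -0.33 to 0.023. The signal over background limits what can be said of Kdr, Tie1 and the undetected Flt1 probe.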
